A study of Mus musculus with 4 samples.

Results

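The cells described here are a finer cluster of microglia that stands out by interferon-stimulated genes. The study's own deposited annotation assigns each sorted brain myeloid cell to one of 9 finer clusters, and the members are the 5398 cells, of 74758 in all, that carry number 5 in it. Of these, 4625 (85.7%) also sit together in cluster 5 of the coarser annotation, where they make up 92.7% of its 4989 cells. Single-cell RNA-seq libraries were made from CD11b+ cells sorted from cortex and hippocampus 24 h after a dose of 10 mg/kg of antibody, in 20 mice, 4 per group. ATV:4D9 is an agonist antibody against TREM2, a lipid-sensing receptor of microglia, whose Fc part also binds the human transferrin receptor (TfR) so that it is carried across the blood-brain barrier. 4D9 is the same TREM2 antibody without TfR binding, and ATV:ISO is a TfR-binding isotype control. AppSAA;TfRmu/hu mice received ATV:ISO, 4D9 or ATV:4D9, while WT;TfRmu/hu mice received ATV:4D9 or ATV:ISO. All mice, controls included, were recorded as homozygous for the human TfR knock-in, and the AppSAA mice were also homozygous for a knock-in amyloid precursor protein gene with 3 familial Alzheimer's disease mutations. Across the whole study the WT;TfRmu/hu mice were 2 to 8 months old and the AppSAA;TfRmu/hu mice 8 months old, and no age was given for each mouse. Of the mice used here, 1 was recorded as female (WT ATV:ISO replicate 4), and each of 4 library pools held 1 mouse of every group.

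Type I interferons are cytokines released when a cell senses foreign or misplaced nucleic acid. They act through a cell surface receptor, its JAK kinases and a transcription factor complex that contains STAT2 and IRF9 and binds the interferon-stimulated response element in the promoters of a large set of antiviral genes. IRF7 is itself made in response and drives further interferon transcription, while USP18 and SOCS proteins damp the receptor. In the brain, microglia with this gene set are known from viral infection, ageing and amyloid pathology.

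Promoter sequence is shown for 4 genes on which the results below turn, so that their response elements can be seen beside their levels. Sequences are from RefSeq (GRCm38.p6), on the strand of the gene, and give the 250 bases upstream of its annotated start. Capitals mark matches to the interferon-stimulated response element core GAAANNGAAA or to the kB core GGGANNNTCC, on either strand.

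Isg15, chr4:156200819-156201068, minus strand: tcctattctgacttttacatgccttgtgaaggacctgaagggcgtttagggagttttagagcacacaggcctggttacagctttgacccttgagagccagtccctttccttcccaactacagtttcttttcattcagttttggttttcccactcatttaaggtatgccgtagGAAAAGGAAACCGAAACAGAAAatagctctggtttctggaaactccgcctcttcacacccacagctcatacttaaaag
Cxcl10, chr5:92348890-92349139, minus strand: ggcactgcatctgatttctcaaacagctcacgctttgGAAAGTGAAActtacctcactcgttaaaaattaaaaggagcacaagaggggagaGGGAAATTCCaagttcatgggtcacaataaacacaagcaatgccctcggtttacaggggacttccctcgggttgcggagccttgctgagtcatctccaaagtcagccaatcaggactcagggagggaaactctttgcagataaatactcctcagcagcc
Rsad2, chr12:26456453-26456702, minus strand: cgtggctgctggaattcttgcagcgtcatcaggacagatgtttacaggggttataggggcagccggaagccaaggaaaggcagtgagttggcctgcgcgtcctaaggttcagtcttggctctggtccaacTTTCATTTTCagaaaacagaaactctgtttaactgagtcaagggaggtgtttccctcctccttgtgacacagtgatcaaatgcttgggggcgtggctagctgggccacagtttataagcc
Ifnb1, chr4:88522795-88523044, minus strand: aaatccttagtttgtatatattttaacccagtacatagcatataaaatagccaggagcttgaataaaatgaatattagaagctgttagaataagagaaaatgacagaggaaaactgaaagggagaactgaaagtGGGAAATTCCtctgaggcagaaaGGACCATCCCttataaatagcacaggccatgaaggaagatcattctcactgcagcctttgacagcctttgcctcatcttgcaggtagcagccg

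The Isg15 promoter held 3 overlapping matches to the response element, the Cxcl10 promoter 1 and a kB match further downstream, the Rsad2 promoter 1 on the reverse strand, and the Ifnb1 promoter 2 kB matches. Among markers not printed here, the Ifit3 promoter held 2 response element matches, and the Ifit2 and Irf7 promoters held 0. In windows of 300 bases (250 before to 50 after the start), the response element letters occurred in 3.44% of 32851 mouse promoters, and the kB letters in 4.59%. Of the 15 genes with the largest ratio of cluster 5 to all other cells, 13 had a promoter entry, and 8 of them (61.5%) held the response element letters. The share was 21 of 42 (50%) for antiviral effector genes with an entry, 9 of 10 for interferon-induced GTPases, 1 of 13 for chemokines and cytokines, and 0 of 27 for cell cycle genes. Entries for Mx1 and Usp18 were not used here. A match is a run of letters, not evidence of binding.

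Markers matched the label. Levels below are UMIs summed over a mouse's cells of the cluster and scaled to a common total (CPM), and all other cells of the same mouse are the reference. Ifit3, an antiviral protein with tetratricopeptide repeats, averaged 11.0 to 99.1 CPM in the other cells of the 5 groups. Inside cluster 5 its group means were at least 647 CPM, and it was higher there than in the other cells in 20 of 20 mice, as were Ifit2, Isg15, Irf7 and Cxcl10. Since the authors formed the clusters from the expression of these genes, the ratios describe the cluster and carry no test.

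**Figure D1:**
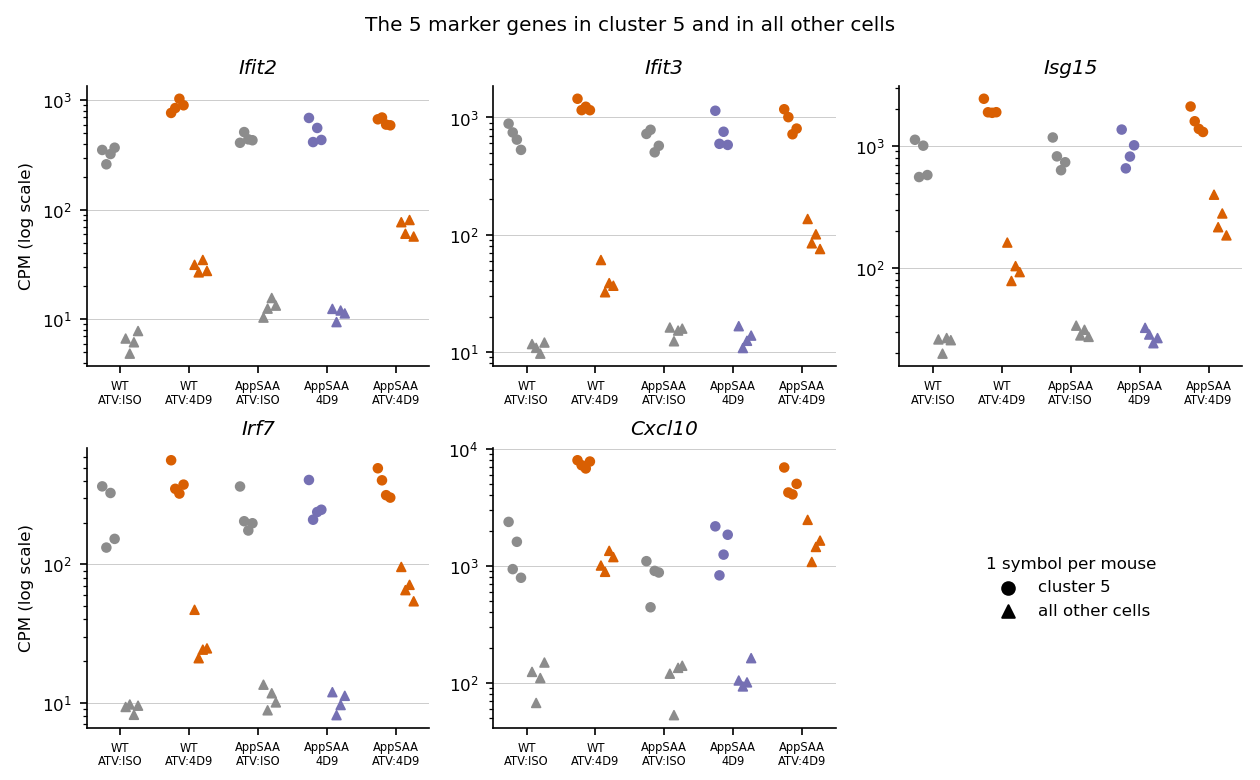
CPM (log axis) of Ifit2, Ifit3, Isg15, Irf7 and Cxcl10 in each of 20 mice by group, with circles for cluster 5 and triangles for all other cells of the same mouse. For every gene the circle of a mouse lies above its triangle, and the gap is narrowest in AppSAA mice given ATV:4D9, where the triangles are highest.

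To compare cells of different depth, each cell was thinned to 3000 UMIs and called positive with at least 3 of the 5 markers. This held for 59.3% of cluster 5 cells in WT mice given ATV:ISO, 93.3% in WT given ATV:4D9, and 49.9%, 49.8% and 74.6% in AppSAA given ATV:ISO, 4D9 and ATV:4D9. Among all other cells it held for 0.362%, 5.91%, 0.797%, 0.548% and 16.2%, and in finer cluster 0 for 0.262 to 1.10% over the groups. Without thinning, the shares were 80.5 to 99.0% in the cluster and 3.15 to 49.5% in other cells. Thinning left out 45 cells of the cluster and 784 others that held fewer UMIs. Cells outside the cluster thus carried the marker set most often in AppSAA mice given ATV:4D9.

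Markers of other cell types were read in the same sums. The 6 microglial markers summed to a median of 15042 CPM in the cluster and 15030 CPM in other cells over 20 mice, and were higher in the cluster in 5 of 20. Summed monocyte markers (Ly6c2, Ccr2, Plac8, Chil3) were higher in the cluster in 20 of 20 mice, with a median of 28.4 (5.13 to 84.6) against 5.31 (3.36 to 9.51) CPM. That sum was carried by Plac8 (26.05 against 1.78 CPM), while the defining Ccr2 was at 3.12 against 3.30 CPM and Ly6c2 at 0.693 against 0.419 CPM. Summed plasmacytoid dendritic cell markers were at a median of 79.6 CPM in the cluster and 88.5 CPM outside, with Ly6d at 0, and summed B cell markers at 14.7 and 20.1 CPM, with Ms4a1 at 0. Summed astrocyte markers were higher in 18 of 20 mice (median 125 against 86.5 CPM). Their part in the results was not tested.

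Each mouse gave 2193 to 6126 cells, of which 18 to 1133 were in the cluster, and the cluster's summed depth was 232605 to 19912400 UMIs per mouse. The fewest cluster cells were in WT mice given ATV:ISO (18 to 48 each) and AppSAA mice given 4D9 (45 to 76 each). Across libraries, 543 of 74212 distinct barcodes occurred in more than 1 pool and touched 84 cluster cells. More cluster cells (805, 14.9%) than other cells (9.13%) had over 25000 UMIs. In the recorded female mouse 48 of 48 cluster cells had an Xist UMI, and in males of the same pool 6.1 to 8.9% of cells did, which was not tested further.

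Expansion of the cluster with ATV:4D9 was seen in both genotypes. In WT mice given ATV:ISO it made up 0.821, 0.892, 1.09 and 1.61% of a mouse's cells, and in WT mice given ATV:4D9 5.92, 3.80, 4.01 and 5.02%. In AppSAA mice it made up 1.64, 2.78, 4.24 and 2.89% with ATV:ISO, 1.64, 1.56, 1.73 and 2.33% with 4D9, and 22.3, 21.7, 30 and 20% with ATV:4D9. All mice given ATV:4D9 lay above every ATV:ISO mouse of their genotype, and AppSAA mice given ATV:4D9 stood far above every other mouse. Exact 95% binomial intervals, which cover counting error only, ran from 0.487 to 1.29% for the lowest share (18 of 2193 cells) and from 28.2 to 31.9% for the highest (724 of 2413 cells).

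**Figure D2:**
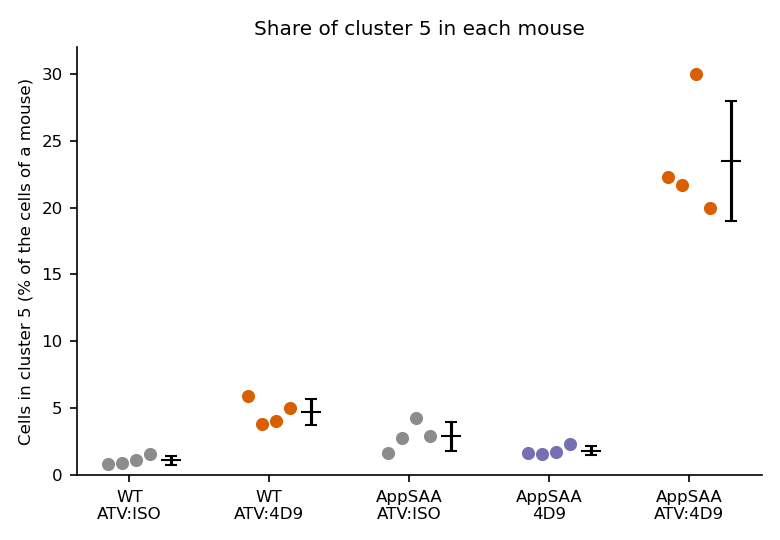
Share of each mouse's cells in cluster 5 (%, linear axis) by group, 1 point per mouse, with the group mean and SD as a black bar over 4 mice. AppSAA mice given ATV:4D9 sit at 20 to 30%, and no other mouse exceeds 5.92%.

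ATV:4D9 raised the share from 1.10 ± 0.355% to 4.69 ± 0.977% (SD, n = 4) in WT mice, a 4.25-fold difference, and from 2.89 ± 1.06% to 23.5 ± 4.46% in AppSAA mice, an 8.13-fold difference. Against 4D9 (1.82 ± 0.348%) the AppSAA share with ATV:4D9 was 12.9-fold higher. Within a treatment, AppSAA mice lay above WT by 1.79 percentage points under ATV:ISO and by 18.8 points under ATV:4D9. Each of these 5 differences had p = 0.0286 (two-sided exact permutation test, the smallest that 4 against 4 mice allow) and an adjusted p of 0.0343 over 6 comparisons, and went the same way in 4 of 4 pools. Mice were not paired by pool in that test, and a sign-flip test that pairs them, given in the closing section, cannot reach 0.05 with 4 pools. The ATV:ISO genotype difference had an adjusted p of 0.0686 when any 1 WT ATV:ISO mouse was left out. In each of these cases the groups still did not overlap (WT at most 1.61%, AppSAA at least 1.64%), and the permutation test had fewer arrangements to draw on. 4D9 lay 1.07 points below ATV:ISO in AppSAA mice with overlapping groups (exact permutation p = 0.0857, unadjusted and adjusted), in the same direction in 4 of 4 pools, and 1.49 points below without ATV:ISO replicate 1 (p = 0.0286).

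The rise was larger in AppSAA than in WT mice when counted in percentage points. By pool it was 20.6, 18.9, 25.8 and 17.1 points in AppSAA and 5.10, 2.91, 2.92 and 3.41 points in WT mice, a difference of 17.01 points (exact permutation p = 0.0286). As a log2 ratio it was 3.76, 2.96, 2.82 and 2.79 in AppSAA and 2.85, 2.09, 1.88 and 1.64 in WT mice. On that scale the genotypes overlapped across pools and differed by 0.97 (exact permutation p = 0.0857, pools not paired), and within each of the 4 pools the AppSAA rise was the larger. Mice of AppSAA given ATV:4D9 supplied 68.5% of all cells in the cluster.

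The share rests on an assignment made from expression, and interferon genes also rose outside the cluster. Isg15, a ubiquitin-like antiviral protein, went from 24.4 to 109 CPM in the other cells of WT mice and from 29.9 to 269 CPM in those of AppSAA mice. A larger share and a general shift of these genes across microglia cannot be told apart here. The cluster held a mean of 33.8% of a mouse's Isg15 UMIs in WT mice given ATV:ISO and 49.9% with ATV:4D9, and 42.8%, 37.4% and 64.0% in AppSAA mice given ATV:ISO, 4D9 and ATV:4D9. For Cxcl10, a chemokine for T cells, the same means were 16.5, 26.5, 17.4, 18.7 and 47.8%. In AppSAA mice given ATV:4D9 the cluster held 52.7% and 53.2% in replicates 2 and 3. The share of other cells with a Cxcl10 UMI was lowest in pool 2 and highest in pool 4 in 5 of 5 groups, at 28.4% and 64.2% in WT mice given ATV:ISO. Each pool also held mice given ATV:4D9, and how much of the Cxcl10 in other cells was free RNA of the pool was not tested.

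Across genes, the cluster differed from the other cells of the same mouse in a narrow set. Of 8188 genes at 10 CPM or more, 303 (3.7%) were higher in the cluster in 20 of 20 mice and 112 (1.37%) lower in all, with a median log2 ratio of -0.11. Values in parentheses are mean log2 ratios to the other cells. The 15 highest were Iigp1 (5.75), Rsad2 (5.39), Ifi47 (5.32), Ifit3b (5.28), Ifit1 (5.19), Oasl1 (5.14), Ifit3 (5.07), Ifi211 (4.98), Ifi206 (4.93), Ifit2 (4.88), Cmpk2 (4.62), Isg15 (4.34), Mx1 (4.23), Slfn5 (4.12) and Ifi209 (4.06). All are known interferon-stimulated genes. Of the highest 50 among 3023 genes at 50 CPM or more in the cluster, 35 stood in an interferon list used here. The share of list genes among all 3023 is not given here. Those lists were chosen with earlier results of these data known, and the clusters were formed from expression, so the count is no test. Some members, such as Ifit3 and Ifit3b or the Ifi200 genes, are neighbours of similar sequence, so reads may be divided among them.

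Ordered by role, the pathway separated into parts that marked the cluster and parts that did not. None of 8 receptor and kinase genes was higher or lower in all mice (median -0.07). Transcription factors were higher in all mice for 5 of 10, among them Irf7 (3.98), Stat2 (2.67), Irf1 (1.37) and Irf9 (0.80). Nucleic acid sensors were higher for 8 of 12, led by the Z-DNA sensor Zbp1 (3.77) and including the RNA helicases Ifih1 (2.51), Dhx58 (2.44) and Ddx58 (2.31), the kinase Eif2ak2 (2.04) and Tlr3 (1.23). Antiviral effectors were higher for 49 of 51 (median 2.93), and one of the exceptions was the lysosomal thiol reductase Ifi30 (0.08, higher in 12 of 20). Summed over the list, effectors were at 14529 ± 2676 CPM in cluster 5 (SD, n = 20 mice) and at means of 2130 to 4151 CPM in the 8 other finer clusters.

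GTPases of the Gbp and Irg families, which attack vacuoles of intracellular microbes, were higher in all mice for 14 of 14 genes (median 2.53). Among feedback inhibitors this held for 2 of 7, Usp18 (4.04) and the Fc-binding ubiquitin ligase Trim21 (1.17), while Socs1 reached 2.36 in 19 of 20 mice. Chemokines and cytokines split, with 10 of 19 higher in all mice, among them Cxcl11 (3.54), Ccl5 (3.05), Ccl12 (2.93), Cxcl10 (2.91), the death ligand Tnfsf10 (2.91) and Ccl2 (2.10). Summed over that list, the median was 13084 CPM in cluster 5 and 10766 CPM in finer cluster 1, the next highest. MHC class I and its peptide transport machinery were higher for 17 of 17 (median 0.84, with Tap1 at 1.75 and H2-K1 at 0.78). Summed class I was at 9107 ± 1139 CPM in cluster 5 (SD, n = 20 mice) and at means of 5110 to 8391 CPM in the other finer clusters. Finer cluster 6 came nearest (8391 ± 980 CPM, n = 13 mice). MHC class II was higher for 0 of 7 (median 0.07). Class II genes varied by group, and Cd74, the invariant chain, had a mean log2 ratio of 1.56 in WT mice given ATV:ISO and 0.13 in those given ATV:4D9. In AppSAA mice the Cd74 ratio was 0.05 with ATV:ISO, -0.29 with 4D9 and 0.52 with ATV:4D9.

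**Figure D3:**
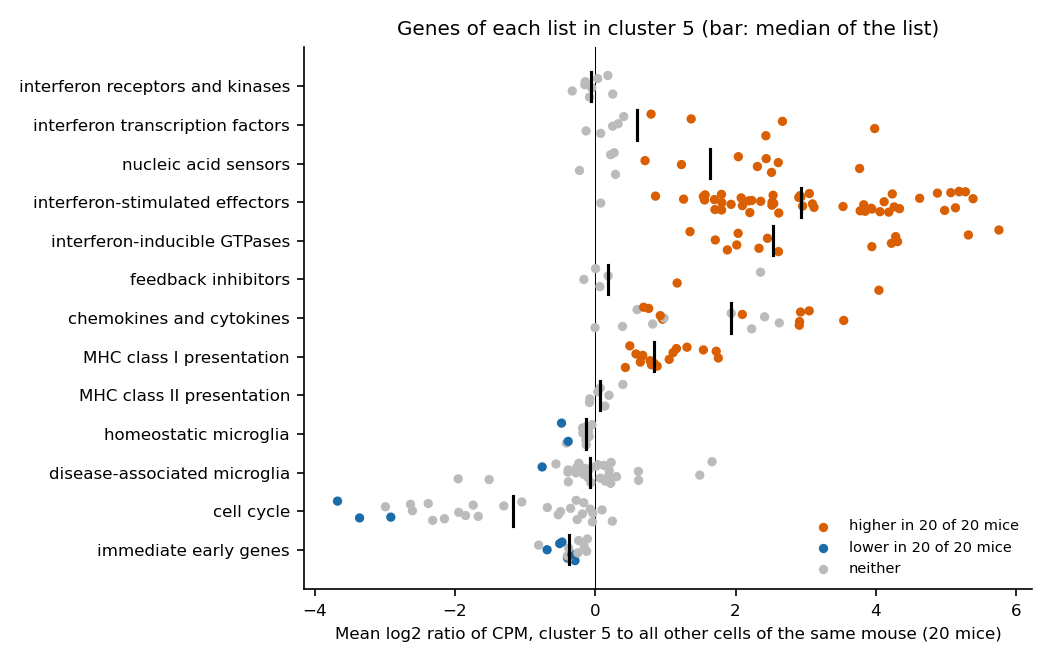
Mean log2 ratio of cluster 5 to all other cells of the same mouse over 20 mice, 1 dot per gene at 10 CPM or more, in 13 gene lists, with orange for genes higher in 20 of 20 mice, blue for genes lower in all, grey for neither and a black bar for the list median. Effectors, GTPases, sensors and MHC class I lie to the right of 0, and cell cycle genes to the left.

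Few genes were lower in the cluster in all mice. The 8 lowest by mean log2 ratio were Mki67 (-2.61), Pclaf (-2.14), Gpnmb (-1.95), Top2a (-1.74), Spp1 (-1.51), Hist1h1d (-0.87), Scd2 (-0.83) and Sox4 (-0.77). Mki67 marks proliferating cells and was above the other cells in 1 of 20 mice. These ratios depend on proliferating clusters among the other cells. With each other cluster given equal weight, Mki67 was at -4.48 and Top2a at -3.51. Summed cell cycle genes were at 764 ± 619 CPM in cluster 5 (SD, n = 20 mice, median 350). Their means were 228 to 259 CPM in finer clusters 0, 2, 3 and 6, and 939 and 977 CPM in 1 and 8. In finer clusters 4 and 7 they were 3450 and 6461 CPM, so cluster 5 was low against these but not among all clusters. Cell cycle genes had a median of -1.17 (3 of 28 lower in all mice), immediate early genes -0.38 (6 of 15), homeostatic genes -0.13 (2 of 14, Gpr34 and Fcrls) and disease-associated genes -0.07 (1 of 30, Ccl6). The disease-associated median pools groups that went opposite ways. Cst7, a cathepsin inhibitor, had mean log2 ratios of 2.13 and 0.45 in WT mice given ATV:ISO and ATV:4D9, and of -0.79, -1.06 and 0.37 in AppSAA mice given ATV:ISO, 4D9 and ATV:4D9. For Apoe, the main lipid carrier of the brain, the values in that order were 1.53, 0.43, -0.65, -0.75 and 0.40. Both genes were higher in the cluster in every WT mouse and every AppSAA mouse given ATV:4D9, and lower in the other 8 mice. For Apoe in WT ATV:ISO replicate 3 this direction rests on 1 cell, which held 1193 of the cluster's 1461 UMIs (81.7%). Over the WT ATV:ISO group, 5 of 112 cells held 50% of the cluster's Apoe UMIs. Axl, a receptor for dying cells, was higher in 19 of 20 mice, with ratios of 2.95, 2.27, 0.48, 0.46 and 1.29.

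Separation of the cluster from its neighbours was smallest in AppSAA mice given ATV:4D9. The log2 ratio of Ifit3 was 5.96 in WT mice given ATV:ISO, 4.93 in WT given ATV:4D9, 5.42 and 5.80 in AppSAA given ATV:ISO and 4D9, and 3.23 in AppSAA given ATV:4D9. Rsad2, an antiviral radical SAM enzyme also called viperin, gave 6.16, 5.53, 5.35, 6.08 and 3.81 in the same order. For Isg15 the values were 4.99, 4.26, 4.77, 5.06 and 2.60. Depth moved with these groups, since the median ratio of UMIs per cell inside to outside was 1.27 in WT mice given ATV:ISO, 1.11 in WT given ATV:4D9, 1.01 and 1.08 in AppSAA given ATV:ISO and 4D9, and 0.941 in AppSAA given ATV:4D9. Cluster cells were deeper in 8 of 8 WT mice and in 1 of 4 AppSAA mice given ATV:4D9, and the part of depth was not tested.

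Within the cluster, ATV:4D9 changed many genes in both genotypes. Per-mouse sums of the cluster's cells were compared by edgeR's quasi-likelihood test, adjusted by Benjamini-Hochberg over 9494 genes, with a threshold of 0.05 on the adjusted p for a call. In WT mice 2885 genes (30.4%) were called, 1584 higher and 1301 lower with ATV:4D9 than with ATV:ISO. Without WT ATV:ISO replicate 4, the 1 female, 1908 were called (1105 higher and 803 lower), and with DESeq2 the split was 1446 higher and 1514 lower. In AppSAA mice 3451 (36.3%) were called, 1829 higher and 1622 lower. The median log2 fold change over all genes was near 0 in both. Changes given below are fitted log2 fold changes unless stated otherwise. Group averages of the cluster's median UMIs per cell were 9509 (WT ATV:ISO), 16893 (WT ATV:4D9), 9465 (AppSAA ATV:ISO), 10294 (4D9) and 14812 (AppSAA ATV:4D9), so depth per cell moved with ATV:4D9, and its part was not tested. As the assignment to the cluster used these genes, it bounds how far their levels inside it could vary, which was not tested either.

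Of 10 interferon ligand genes looked for, Ifnb1 and Ifng were in the matrix, so other ligands could not be read here. Ifnb1, interferon beta, had 0, 0, 0 and 2 UMIs in the cluster cells of the 4 WT mice given ATV:ISO and 97, 90, 98 and 100 in those given ATV:4D9. In AppSAA mice the counts were 0, 1, 3 and 17 with ATV:ISO, 4, 0, 6 and 7 with 4D9, and 453, 259, 293 and 268 with ATV:4D9. Every mouse given ATV:4D9 stood above every mouse that was not. Per UMI of the cluster, Ifnb1 was 19.8-fold higher with ATV:4D9 in WT mice (95% counting interval 5.44 to 164, from 2 UMIs in the controls) and 6.64-fold in AppSAA mice (4.32 to 10.8). Counting intervals here pool UMIs over cells and mice and leave out the spread between mice. ATV:ISO replicate 4 held 17 of the 21 control UMIs in AppSAA mice, and the ratio was 25.7-fold (10.0 to 94.3) without it and 4.01-fold (2.53 to 6.78) without replicate 3. Without replicate 4 the WT controls held 0 Ifnb1 UMIs, and against a floor of 3 counts over the group the ratio was at least 7.82-fold higher. Fitted log2 fold changes of Ifnb1 were 4.49 (SE 0.93, adjusted p = 0.000495) and 2.89 (SE 0.45, adjusted p = 1.42e-05).

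Few cells carried Ifnb1. A UMI was seen in 10.4% of cluster cells of WT mice given ATV:4D9 (79 of 759) and 5.89% of those of AppSAA mice given ATV:4D9 (218 of 3699), against 0.731% and 1.02% of their other cells. In AppSAA mice it was seen in 1.20% of cluster cells with ATV:ISO and 2.43% with 4D9. The cluster held 385 of 679 Ifnb1 UMIs (56.7%) in WT mice given ATV:4D9 and 1273 of 1655 (76.9%) in AppSAA mice given ATV:4D9. Counts were concentrated, since 9 cells held 50% of the cluster's Ifnb1 UMIs in WT and 23 cells in AppSAA mice given ATV:4D9. Ifng, the type II ligand, had 1 UMI in the cluster and 9 in other cells over the whole study.

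Receptor genes were read next. Ifngr1, a chain of the interferon gamma receptor, fell by 1.28 on the log2 scale in WT mice (SE 0.14, adjusted p = 6.1e-08) and by 0.60 in AppSAA mice (SE 0.13, adjusted p = 0.00065). Of 8 receptor and kinase genes, 0 were called higher and 3 lower in WT mice, and 0 and 1 in AppSAA mice, while 13.7% and 17.1% of all genes were lower. Among 11 transcription factors, 3 were higher and 1 lower in WT mice, where 16.7% of all genes were higher. In AppSAA mice 1 was higher and 1 lower, and the count higher is below the 19.3% of all genes there. The factors called higher in WT mice were Irf7 (0.94, adjusted p = 0.0126), Irf1 (0.79, adjusted p = 0.0014) and Stat2 (0.45, adjusted p = 0.0215), and the one called lower was Irf9 (-0.47, adjusted p = 0.0123, or 0.14 with no filter on low counts). The Irf7 call in WT mice was lost without any 1 of 3 mice (ATV:ISO replicates 2 and 4, ATV:4D9 replicate 1) and under DESeq2 (adjusted p = 0.061 to 0.11). The Stat2 call was lost without any 1 of 5 mice (ATV:ISO replicates 2, 3 and 4, ATV:4D9 replicates 2 and 3).

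Irf7, the master regulator of interferon transcription, was at 365, 132, 327 and 152 CPM in cluster cells of WT mice given ATV:ISO and at 565, 351, 324 and 376 CPM with ATV:4D9. In AppSAA mice the Irf7 levels were 365, 204, 175 and 198 CPM with ATV:ISO and 494, 404, 316 and 303 CPM with ATV:4D9. The groups overlapped in both genotypes, through ATV:ISO replicates 1 and 3 in WT and replicate 1 in AppSAA mice. The Irf7 difference was 0.89 in AppSAA mice (adjusted p = 0.00747).

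Of 12 sensor genes, 7 were called higher and 1 lower in WT mice (median log2 fold change 0.48), and 2 higher and 0 lower in AppSAA mice (0.23). Of all genes, 16.7% were called higher in WT and 19.3% in AppSAA mice, so the AppSAA count is below the share over all genes. Ifih1 (MDA5), a cytosolic sensor of long double-stranded RNA, rose by 0.90 in WT mice (adjusted p = 7.64e-05), and its difference in AppSAA mice was 0.32 with no call. Tlr3, an endosomal double-stranded RNA receptor, rose by 0.92 in WT mice (adjusted p = 6.15e-05) with 0.27 and no call in AppSAA mice. The DNA sensor Cgas rose in both, by 1.07 and 0.68. For Ifih1 and Tlr3 the difference between genotypes in the response was not called.

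Antiviral effectors rose further inside the cluster. Of 51 effectors, 33 were called higher and 1 lower in WT mice (median 0.58) and 29 and 1 in AppSAA mice (median 0.45), with 16.7% and 19.3% of all genes called higher. Summed over the list, effectors were at 13723, 11225, 12879 and 10713 CPM in WT mice given ATV:ISO and at 19528, 16805, 16655 and 16979 CPM with ATV:4D9. In AppSAA mice they were at 13681, 12832, 11456 and 11706 CPM with ATV:ISO, 16615, 11980, 13152 and 12757 CPM with 4D9, and 18604, 17636, 15992 and 15653 CPM with ATV:4D9. The ATV:4D9 mice of each genotype lay above all ATV:ISO mice of that genotype, and 4D9 replicate 1 lay inside the ATV:4D9 range.

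Rsad2 was at 185, 248, 184 and 177 CPM in WT mice given ATV:ISO and at 676, 435, 619 and 652 CPM with ATV:4D9. In AppSAA mice Rsad2 was at 107, 144, 178 and 185 CPM with ATV:ISO and at 464, 392, 343 and 424 CPM with ATV:4D9, with no overlap in either genotype. Rsad2 rose by 1.72 (SE 0.22, adjusted p = 8.04e-07) and 1.52 (SE 0.20, adjusted p = 8.82e-07). Isg15 was at 1122, 555, 1004 and 576 CPM in WT mice given ATV:ISO and at 2435, 1886, 1867 and 1888 CPM with ATV:4D9. Isg15 in AppSAA mice was at 1172, 821, 632 and 734 CPM with ATV:ISO and at 2102, 1592, 1378 and 1300 CPM with ATV:4D9. Isg15 also separated the groups fully, and rose by 1.46 in WT and 1.09 in AppSAA mice (SE 0.23 and 0.22, adjusted p = 2.31e-05 and 0.000384).

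Ifit2, a repeat protein that binds viral RNA, was at 353, 261, 324 and 370 CPM in WT mice given ATV:ISO and at 768, 851, 1035 and 902 CPM with ATV:4D9. In AppSAA mice Ifit2 was at 410, 513, 441 and 432 CPM with ATV:ISO and at 672, 697, 601 and 592 CPM with ATV:4D9, again without overlap. The Ifit2 rise of 1.56 in WT mice (SE 0.15, adjusted p = 6.96e-09) exceeded that of 0.65 in AppSAA mice by 0.91 (SE 0.20, adjusted p = 0.0387 for the interaction). Ifit2 is a marker of the cluster, so its level there depends on which cells were assigned. After thinning, 93.3% of cluster cells in WT and 74.6% in AppSAA mice given ATV:4D9 had at least 3 of the 5 markers. The part of this assignment in the Ifit2 interaction was not tested, so its p-value does not isolate a genotype effect. Without any 1 of 12 of the 16 mice, and with cells limited to 1000 to 25000 UMIs, the Ifit2 interaction missed the threshold. Ifit3 rose by 0.97 (SE 0.21, adjusted p = 0.00066) and 0.67 (SE 0.20, adjusted p = 0.00844), and its AppSAA call was lost without ATV:ISO replicate 3 or ATV:4D9 replicate 1. Ifi27l2a, a small membrane protein induced by interferon, went opposite ways, falling by 1.12 in WT mice (adjusted p = 0.000697) and rising by 0.79 in AppSAA mice (adjusted p = 0.00668), with an interaction of 1.91 (SE 0.33, adjusted p = 0.00559).

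Usp18, a protease that removes ISG15 and blocks the interferon receptor, rose by 1.49 in WT (SE 0.20, adjusted p = 2.43e-06) and 0.81 in AppSAA mice (SE 0.17, adjusted p = 0.000553). Of 7 feedback genes, 1 was called higher in WT mice, where 16.7% of all genes were. In AppSAA mice 2 were called higher and 1 lower, where 19.3% and 17.1% of all genes were. Socs3, a suppressor of cytokine signalling, rose in AppSAA mice by 1.15 (SE 0.20, adjusted p = 5.78e-05) and differed by 0.38 with no call in WT mice. Of 14 GTPases, 5 were called higher in WT mice (median 0.62), against 16.7% of all genes. In AppSAA mice 2 were called higher and 1 lower (median 0.05), and the count higher is below the 19.3% of all genes there. Igtp, an immunity-related GTPase also called Irgm3, rose by 1.10 in WT mice (SE 0.17, adjusted p = 1.43e-05) and differed by 0.05 in AppSAA mice, with an interaction of -1.05 (adjusted p = 0.0295). The Igtp interaction was lost without any 1 of 10 mice and under limma voom (adjusted p = 0.059).

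Of 19 chemokine and cytokine genes, 14 were called higher and 0 lower in WT mice (median 1.79), and 14 and 1 in AppSAA mice (median 1.35), against 16.7% and 19.3% of all genes called higher. Cxcl10 was at 2377, 939, 1607 and 792 CPM in WT mice given ATV:ISO and at 7996, 7247, 6802 and 7797 CPM with ATV:4D9. Cxcl10 in AppSAA mice was at 1098, 443, 907 and 878 CPM with ATV:ISO, 2178, 831, 1249 and 1846 CPM with 4D9, and 6933, 4240, 4084 and 5023 CPM with ATV:4D9. Every ATV:4D9 mouse exceeded every other mouse, and the Cxcl10 rises were 2.52 in WT (SE 0.30, adjusted p = 2.44e-07) and 2.77 in AppSAA mice (SE 0.29, adjusted p = 4.16e-08). A Cxcl10 UMI was in 61.6% of the cluster's cells in WT mice given ATV:ISO and in 94.7% with ATV:4D9, and in 60.2% and 85.6% in AppSAA mice. In the other cells of these groups the shares were 48.2, 73.4, 53.3 and 77.0%.

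The monocyte-attracting chemokines Ccl7 and Ccl12 also rose in both genotypes. Ccl7 rose by 3.54 in WT (SE 0.47, adjusted p = 1.87e-06) and 3.40 in AppSAA mice (SE 0.38, adjusted p = 8.25e-08), and Ccl12 by 2.43 and 2.22 (SE 0.25 and 0.24, adjusted p = 2.53e-08 and 7.52e-08). Ccl2 rose by 2.62 in AppSAA mice (SE 0.34, adjusted p = 1.1e-06). Cxcl11, which shares the receptor of Cxcl10, rose by 2.63 in AppSAA mice (SE 0.56, adjusted p = 0.000562). In WT mice the Cxcl11 difference was 1.92 (adjusted p = 0.0179), and the call was lost without ATV:ISO replicate 2 or 4 and under DESeq2. Cxcl9, a chemokine induced by interferon gamma, was the one called lower in AppSAA mice (-1.52, adjusted p = 0.0256), and it was not called under limma voom (-0.45) or DESeq2 (-1.43), or without ATV:ISO replicate 3 or 4 or ATV:4D9 replicate 4. With ATV:ISO, 2 cells held 50% of the 648 Cxcl9 UMIs of the group, and with 4D9, 1 cell held 255 of 422.

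Antigen presentation genes came next. Of 17 MHC class I genes, 2 were called higher and 1 lower in WT mice (median 0.22), and 10 higher and 0 lower in AppSAA mice (median 0.44), against 16.7% and 19.3% of all genes called higher. H2-K1, a classical class I heavy chain, was at 1539, 1261, 1269 and 937 CPM in WT mice given ATV:ISO and at 1066, 893, 876 and 983 CPM with ATV:4D9. H2-K1 in AppSAA mice was at 1388, 954, 1469 and 1013 CPM with ATV:ISO and at 1407, 1385, 1734 and 1405 CPM with ATV:4D9. Both H2-K1 pairs of groups overlapped, and the fitted values were -0.26 with no call in WT and 0.44 in AppSAA mice (SE 0.15, adjusted p = 0.0205). The AppSAA call of H2-K1 was lost without any 1 of 3 mice (ATV:ISO replicates 2 and 4, ATV:4D9 replicate 3). Of 7 MHC class II genes, 2 were called lower in each genotype and none higher (median -0.30 in both), against 13.7% and 17.1% of all genes called lower. The AppSAA call of H2-Aa, a class II alpha chain, was lost without any 1 of 4 mice (ATV:ISO replicate 3, ATV:4D9 replicates 1, 2 and 4). It was also lost under limma voom and DESeq2 and with cells limited to 1000 to 25000 UMIs, and the H2-Aa value was -0.23 without ATV:ISO replicate 3.

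Homeostatic microglial genes fell inside the cluster. Of 14 genes, 0 were called higher in either genotype, and 11 were called lower in WT (median -0.53) and 10 in AppSAA mice (median -0.45), with 13.7% and 17.1% of all genes called lower. P2ry12, the ADP receptor that guides microglial processes, was at 1578, 1727, 2063 and 2073 CPM in WT mice given ATV:ISO and at 523, 784, 669 and 601 CPM with ATV:4D9. P2ry12 in AppSAA mice was at 1461, 1351, 1592 and 1630 CPM with ATV:ISO, 1524, 1380, 1446 and 1440 CPM with 4D9, and 367, 610, 512 and 587 CPM with ATV:4D9. ATV:4D9 mice stood below every other mouse. P2ry12 fell by 1.41 in both genotypes (SE 0.12, adjusted p = 1.6e-09 and 1.41e-09).

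Cell cycle and metabolic genes rose together. Of 33 cell cycle genes, 25 passed the count filter inside the cluster. Of these, 24 were called higher in WT mice (median 2.64) and 25 in AppSAA mice (median 2.33), with none lower. Inside the cluster 16.7% and 19.3% of all genes were called higher. A gene near 0 in the controls could pass the filter through the ATV:4D9 mice alone, so these counts are partly set by the filter and are no test of the list. Hells, a chromatin remodeller of S phase, was at 12.9, 0, 11.0 and 7.01 CPM in WT mice given ATV:ISO and at 118, 142, 122 and 101 CPM with ATV:4D9. The WT ATV:ISO values rest on few UMIs, in cluster sums of 232605 to 570700 UMIs per mouse. Hells in AppSAA mice was at 10.8, 3.42, 4.58 and 6.15 CPM with ATV:ISO and at 62.0, 64.1, 56.1 and 62.4 CPM with ATV:4D9. The groups were wide apart, and the Hells log2 fold changes were 4.20 in WT (SE 0.34, adjusted p = 7.96e-10) and 3.65 in AppSAA mice (SE 0.24, adjusted p = 2.57e-11). In the other cells, 33 of 33 cell cycle genes were called higher in both genotypes, where 30.9% and 27.9% of all genes were. Glycolysis genes were called higher for 12 of 15 in each genotype (medians 0.86 and 0.94), oxidative phosphorylation genes for 14 of 20 (0.49 in both), and Myc target genes for 13 and 14 of 15 (1.20 and 0.88).

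**Figure D4:**
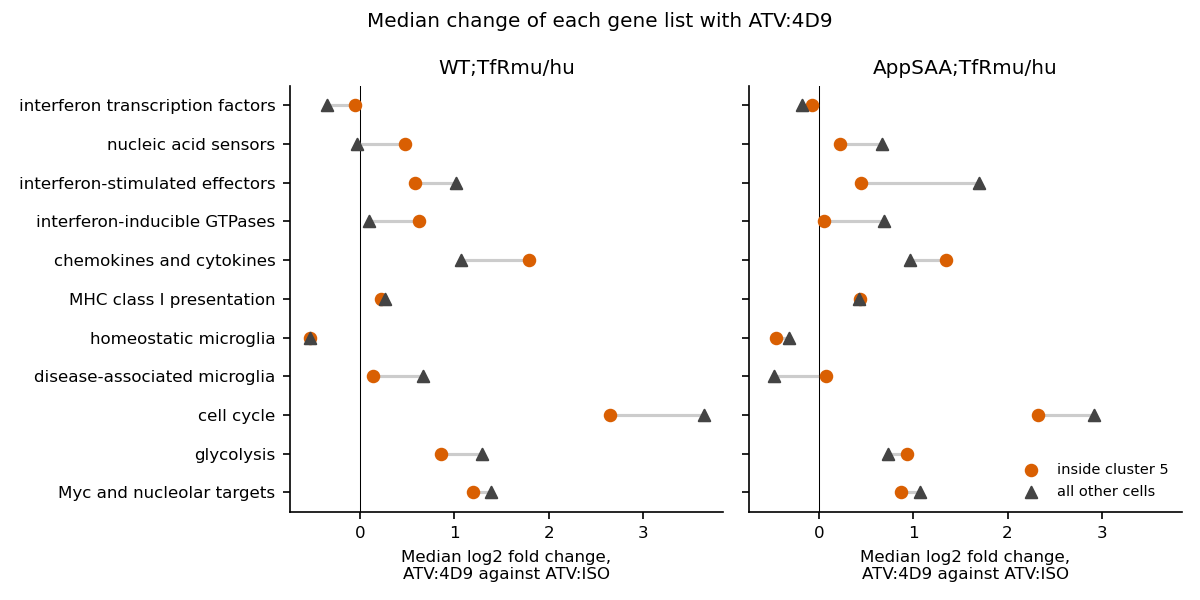
Median log2 fold change of ATV:4D9 against ATV:ISO over the genes of 11 lists, with orange circles for cluster 5 and grey triangles for all other cells, in WT mice and in AppSAA mice. Effectors rose less inside the cluster than outside it in AppSAA mice (0.45 against 1.69), and chemokines reached 1.79 and 1.35 inside it.

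Among genes at 50 CPM or more in the higher group with no overlap, further large changes in WT mice were those of the replication genes Pclaf (3.79), Uhrf1 (3.63), Dtl (3.59) and Ezh2 (3.56), all higher, and Fabp5 (-3.17), a fatty acid binding protein, Rnase6 (-2.89), Mxd4 (-2.46), a Myc antagonist, the inhibitory lectin Clec4a2 (-2.41), the B cell chemokine Cxcl13 (-2.25) and Klhl24 (-2.19), all lower. In AppSAA mice the arginine synthesis enzyme Ass1 rose by 2.93 (SE 0.35, adjusted p = 2.28e-07). By the same limits, the lowest there were Sox4 (-1.64), Crybb1 (-1.49), the iron exporter Slc40a1 (-1.48), Csmd3 (-1.43), Cbfa2t3 (-1.43) and Clec4a2 (-1.41). Sox4, Crybb1 and Cbfa2t3 encode a developmental transcription factor, a crystallin found in microglia and a transcriptional corepressor.

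A further test asked whether the change inside the cluster differed from that in the other cells of the same mice. Over 13246 genes, the difference was called for 527 (3.98%) in WT mice, 319 (2.41%) with a more positive change in the cluster and 208 (1.57%) with a more negative one, and for 1259 (9.5%) in AppSAA mice, 586 (4.42%) and 673 (5.08%). With RLE size factors the WT split was 190 and 416, and with limma voom 377 and 1326 (AppSAA 416 and 784). Cells were placed inside or outside the cluster by their expression, so these counts and the values that follow describe the sets of cells and are no test of a gene or list. The median change of effectors in AppSAA mice was 0.45 inside and 1.69 outside, and in WT mice 0.58 and 1.02. For GTPases (14 tested inside and 15 outside) it was 0.05 and 0.69 in AppSAA mice, and 0.62 and 0.09 in WT mice. Ifit3 in AppSAA mice rose by 0.67 inside and 2.81 outside the cluster, and Isg15 by 1.09 and 3.25. Under ATV:ISO the AppSAA means were 647 CPM of Ifit3 inside and 14.9 CPM outside, and 840 and 29.9 CPM of Isg15.

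Among the genes counted above with a mean over all mice of at least 50 CPM in the cluster or in the other cells, the 6 most positive differences in WT mice were those of Ccl7 (2.02), Gbp5 (1.83), Gbp7 (1.47), Arid5b (1.35), Tlr3 (1.24) and the dNTP hydrolase Samhd1 (1.24). The 6 most negative were Cxcl13 (-3.57), Gm1673 (-2.43), Fabp5 (-2.19, not counted by limma voom), the replication helicase subunit Mcm5 (-1.82), Ifitm3 (-1.75) and Cst7 (-1.74). Disease-associated genes in AppSAA mice had a median change of 0.08 inside and -0.48 outside the cluster. Among them Cst7, Apoe and Clec7a fell in the other cells (-0.87, -0.97 and -0.91), as did 26.9% of all genes, and were not called inside (0.31, 0.06 and 0.01). By the same limits, the most positive difference in AppSAA mice was that of Ch25h, cholesterol 25-hydroxylase, at 2.04.

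4D9 without TfR binding called no gene inside the cluster. The 4D9 arm held 247 cluster cells, 45 to 76 per mouse, so a count of 0 does not show that 4D9 had no effect there. Against ATV:ISO in AppSAA mice, edgeR called 0 of 9494 genes (0.0%), with 241 at an unadjusted p under 0.05. Limma voom called 0 with 194 unadjusted and DESeq2 0 with 232, while edgeR with no filter on low counts called 21. Cxcl10 differed by 0.90 (SE 0.28), Rsad2 by 0.79 (SE 0.21), Isg15 by 0.22 (SE 0.23), Ifit3 by 0.26 (SE 0.20) and P2ry12 by -0.03 (SE 0.12), each with an adjusted p of 1. The difference between cluster and other cells was called for 0 genes by edgeR (647 at an unadjusted p under 0.05) and 0 by limma voom (719).

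ATV:4D9 against 4D9 in AppSAA mice called 2309 genes (24.3%), 1322 higher (13.9%) and 987 lower (10.4%). Effectors were called higher for 18 of 51 (median 0.31), chemokines for 11 of 19 with 1 lower (median 0.94), MHC class I for 6 of 17 and cell cycle genes for 25 of 25 (median 2.47), and homeostatic genes were called lower for 10 of 14. The limit that the count filter sets on the cell cycle count, given above, holds here too. Cxcl10 rose by 1.87, Ccl7 by 2.69, Hells by 3.29, Isg15 by 0.87 and Rsad2 by 0.72 (not called with cells limited to 1000 to 25000 UMIs, adjusted p = 0.102), and P2ry12 fell by 1.37. Ifit3 differed by 0.41 with no call, and Ifnb1 rose by 1.99 (SE 0.51, adjusted p = 0.0049). This contrast shares its ATV:4D9 mice with that against ATV:ISO.

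Fewer genes inside the cluster were called for genotype within a treatment than for ATV:4D9 against ATV:ISO. Under ATV:ISO, AppSAA against WT called 22 genes (0.232%), 15 higher (0.158%) and 7 lower, and 97 with pool as a block. The count was 9, 4, 55, 6, 2 and 10 without WT replicate 3, WT replicate 4 and AppSAA replicates 1, 2, 3 and 4. Highest were Ank, a pyrophosphate transporter (2.11, adjusted p = 9.09e-05), and the chemokine Ccl6 (1.66, adjusted p = 0.000916). Of 30 disease-associated genes, 2 were called higher inside the cluster (median 0.43), against 30 of 30 in the other cells (median 2.34), where 14.6% of all genes were. Of 51 effectors, 0 were called in the cluster (median 0.14). The WT arm held 112 cells.

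Under ATV:4D9, AppSAA against WT called 542 genes (5.71%), 318 higher (3.35%) and 224 lower (2.36%), and 1402 with pool as a block. The count was 824 without AppSAA replicate 1 and 337 without AppSAA replicate 3. Effectors were called higher for 4 of 51 and lower for 1 (median -0.12), although in the other cells 47 of 51 were higher (median 1.17, against 5.41% of all genes). Higher inside the cluster in AppSAA mice were 14 of 30 disease-associated genes (median 0.60), 6 of 17 MHC class I genes (median 0.32) and 4 of 7 MHC class II genes (median 1.01), including Cd74, the class II invariant chain (1.64, adjusted p = 0.0084). Lower were 19 of 25 cell cycle genes (median -0.66), with Hells at -0.89 (SE 0.14, adjusted p = 0.00013) and Top2a at -0.88 (SE 0.16, adjusted p = 0.000685). Ifnb1 per UMI of the cluster was 0.727-fold that of WT (counting interval 0.648 to 0.817), with a fitted value of -0.41 and no call. That interval pools UMIs over cells and mice and leaves out the spread between mice. Few cells weigh on it, since 9 cells in WT and 23 cells in AppSAA mice held 50% of these UMIs.

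Apoe was at 4205, 5040, 5373 and 4987 CPM in the cluster of WT mice given ATV:ISO and at 754, 819, 1198 and 1503 CPM with ATV:4D9. Apoe in AppSAA mice was at 4017, 5250, 8754 and 5642 CPM with ATV:ISO and at 4064, 5917, 7141 and 5337 CPM with ATV:4D9. The WT ATV:4D9 mice stood below all others, and the 2 AppSAA groups overlapped. Apoe fell by 2.07 in WT mice (SE 0.23, adjusted p = 1.16e-07) and differed by 0.06 in AppSAA mice, with an interaction of 2.13 (SE 0.32, adjusted p = 0.000997). In WT mice given ATV:ISO, 5 cells held 50% of the cluster's 6928 Apoe UMIs.

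The ATV:4D9 effect differed between genotypes for 21 genes (0.221%), 16 with a more positive effect in AppSAA mice and 5 with a more negative one, and for 72 with pool as a block. Without 1 of 11 mice in turn the count moved by over 1.5 times, to 7 without WT ATV:ISO replicate 2 and to 33 without AppSAA ATV:4D9 replicate 1 at the extremes. The largest was Cxcl13 (4.76, SE 0.63, adjusted p = 0.000235). Cxcl13 was at 684, 126, 199 and 193 CPM in WT mice given ATV:ISO and at 42.3, 56.0, 35.3 and 83.3 CPM with ATV:4D9. Cxcl13 in AppSAA mice was at 10.8, 17.1, 46.4 and 105 CPM with ATV:ISO and at 357, 300, 194 and 183 CPM with ATV:4D9. These CPM values did not overlap in either genotype and moved in opposite directions. The share of cluster cells with a Cxcl13 UMI instead rose with ATV:4D9 in both. It went from 8.04 to 11.9% in WT and from 7.75 to 23.4% in AppSAA mice, while depth per cell also rose. The WT ATV:ISO level came from few cells, since 9 of 112 cells had a Cxcl13 UMI and the top 5 held 97.0% of 364 UMIs, while in AppSAA mice given ATV:4D9 867 of 3699 cells had one and 38 held 50% of the UMIs.

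**Figure D5:**
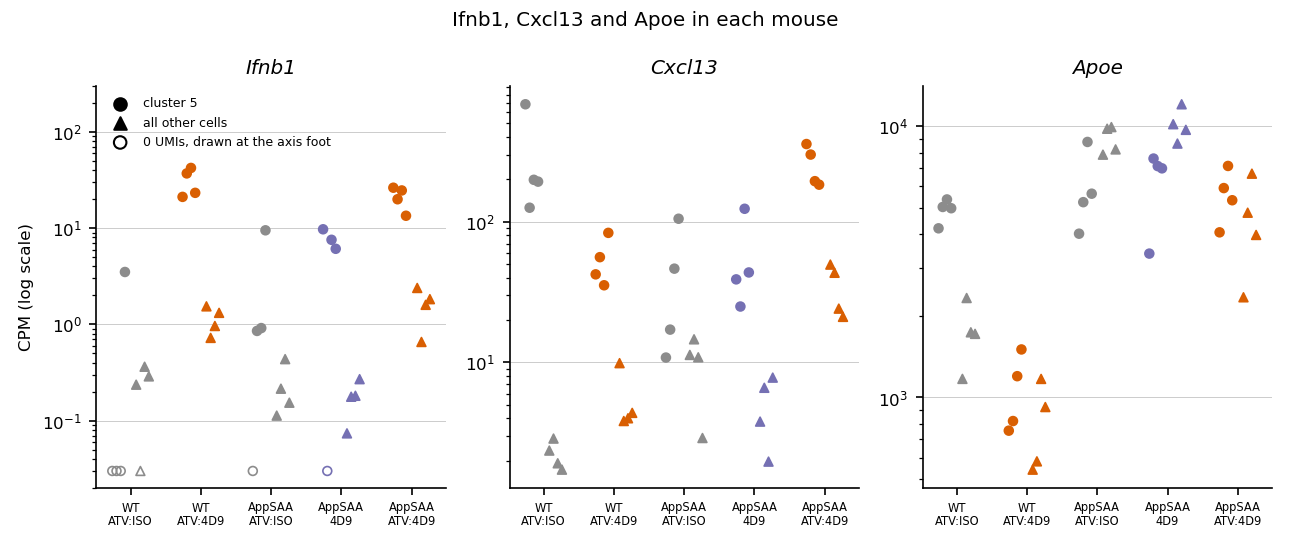
CPM (log axis) of Ifnb1, Cxcl13 and Apoe in each of 20 mice by group, circles for cluster 5 and triangles for all other cells, with open symbols at the foot for 0 UMIs. Ifnb1 is highest in both ATV:4D9 groups, and Apoe in the cluster is lowest in WT mice given ATV:4D9 (754 to 1503 CPM). Cxcl13 CPM moves in opposite directions in the cluster of WT and AppSAA mice, and its WT ATV:ISO level comes from few cells.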

How the data were processed

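Cells were loaded by droplet in 4 pools with multiplexing oligonucleotides, and the authors' tools included Cell Ranger 6.1.1. The deposited matrix holds UMI counts per gene and cell, not normalised, for cells that passed the authors' filters, and the deposited percent of mitochondrial UMIs was used only to check the join. Cluster, pool and mouse came from the deposited annotation, where the isotype arm is named ATV-DNP02 and was read as ATV:ISO. No doublet caller was run. The gene lists and cluster were chosen with earlier results of these data known.

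Counts were summed per mouse inside and outside the cluster and tested with edgeR 4.0.16 (quasi-likelihood, TMM, 1 fit over 5 groups, filterByExpr, Benjamini-Hochberg). The test of the cluster against other cells kept the mouse as a block. The interaction of genotype and ATV:4D9 was a contrast in the fit over 5 groups. Log2 ratios used a prior count of 2. Alternatives were limma 3.58.1 voom, DESeq2 1.42.0, RLE factors, no filter, at least 20 cells per mouse, cells of 1000 to 25000 UMIs, the pool as a block and leaving out each mouse. Per the labels each pool held 1 mouse per group, and same-pool mice deviated together (r from 0.0767 to 0.790, median 0.301, over 40 pairs and 3033 genes, against a median of -0.117 between pools), so pools pair the mice. Scripts were tested on simulated data.

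Genes named were list members, the 15 highest and 8 lowest ratios at 50 CPM or more, and up to 6 called genes per direction and comparison at 50 CPM or more whose groups did not overlap. Promoters were matched by symbol to RefSeq windows (GRCm38.p6).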

Additional observations from a re-analysis of the deposited data

Results flagged for a closer look

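In groups of 4 mice, a value was singled out when its gap to the nearest other mouse, over the group's range, exceeded Dixon's 95% critical value. This happened for 15 of 140 groups tested, and chance alone gives about 1 in 20. Per mouse in the cluster, these were Isg15 at 2435 CPM in WT ATV:4D9 replicate 1, Irf7 at 365 CPM in AppSAA ATV:ISO replicate 1, Rsad2 at 248 CPM in WT ATV:ISO replicate 2 and Cxcl13 at 684 CPM in WT ATV:ISO replicate 1. Ifnb1 was at 9.50 CPM (17 UMIs) in AppSAA ATV:ISO replicate 4 and 3.50 CPM in WT ATV:ISO replicate 4. The WT value is 2 UMIs beside 3 mice at 0, where any count would be singled out, so it says nothing of that mouse. The summed ligands in both mice are the same counts. Among list sums, AppSAA ATV:4D9 replicate 1 was high in chemokines (37935 CPM), feedback genes (1178 CPM) and Myc targets (3150 CPM), and replicate 2 in receptors and kinases (1224 CPM). Transcription factors were high in AppSAA ATV:ISO replicate 1 (2367 CPM), effectors in WT ATV:4D9 replicate 1 (19528 CPM) and homeostatic genes in AppSAA 4D9 replicate 1 (26506 CPM).

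The genotypes differed in the response to ATV:4D9 by some of the tests of that difference already given. The share of cells rose by 17.01 percentage points more in AppSAA than in WT mice, and 21 genes inside the cluster had a different effect. As a log2 ratio the share difference was 0.97 (exact permutation p = 0.0857), and the gene count ran from 7 to 33 when 1 mouse was left out.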

How the results depend on the processing

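The pool as a block (each pool pairs 1 mouse per group) left the share differences at 3.58, 20.6, 21.7, 1.79 and 18.8 percentage points, with p = 0.125 by an exact sign-flip test over 4 pools, the smallest it can give. It raised the gene counts for AppSAA against WT under ATV:ISO from 22 to 97 and under ATV:4D9 from 542 to 1402, and for the difference between genotypes in the ATV:4D9 effect from 21 to 72. It moved no other count by over 1.5 times. With no filter on low counts, the counts were 21 for 4D9 against ATV:ISO, 122 for genotype under ATV:ISO and 92 for the difference between genotypes. Limma voom gave 9 and DESeq2 50 for genotype under ATV:ISO, and limma voom gave 1703 for the difference between cluster and other cells in WT mice. Cells of 1000 to 25000 UMIs gave 113, 917 and 36 for genotype under ATV:ISO, under ATV:4D9 and the difference between genotypes.

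Leaving out each mouse of the groups compared, the share difference was 3.17 to 3.88 points in WT, 18.4 to 21.8 in AppSAA, -1.49 to -0.623 for 4D9 against ATV:ISO, 19.5 to 22.8 for ATV:4D9 against 4D9, 1.34 to 2.20 for genotype under ATV:ISO and 16.6 to 20 under ATV:4D9. The difference between genotypes in the rise was 17.5, 17.4, 15.1 and 18.1 points without pools 1, 2, 3 and 4 (exact permutation p = 0.1, the smallest possible). With all 4 pools it was 0.97 as a log2 ratio. Counts of genes ran from 1908 (without the female, WT ATV:ISO replicate 4) to 2883 in WT, 2360 to 3388 in AppSAA, 0 to 0 for 4D9, 1605 to 2307 for ATV:4D9 against 4D9, 2 to 55 and 337 to 824 for genotype, and 7 to 33 for the difference between genotypes. Named genes without a call in the main fit were not followed through the alternatives. No share difference and no named gene called in the main fit changed sign in the alternatives run, but the split of calls did. For the difference between cluster and other cells in WT mice it went from 319 higher and 208 lower to 190 and 416 with RLE size factors and 377 and 1326 with limma voom, and for ATV:4D9 in WT mice from 1584 and 1301 to 1446 and 1514 with DESeq2. Of 2721 named gene values under alternatives, 233 lost their call. Mice given ATV:ISO had 18 to 260 cluster cells each. The cause of these shifts was not tested.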
